A study of Temora longicornis with 12 samples.

Results

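Temora longicornis is a small planktonic marine crustacean, a calanoid copepod, whose body temperature follows that of the water. This account describes 154 transcripts whose level in all 3 libraries of animals warmed for the last 24 h lay outside the range of the other 9 libraries, out of 44985 assembled transcripts in the deposited table. Of these, 67 were higher and 87 were lower in the acutely warmed animals. They were chosen on measured values. Levels are in CPM, counts scaled to a library total of 1000000, here leaving out of that total the transcript TRINITY_DN157064_c6_g3_i1, whose share of the counts varied from 0.00387% to 53.1% between libraries. A member had a mean of at least 1 CPM over the 12 libraries, which 31102 transcripts reached. Its 3 acute libraries were all above or all below each of the other 9, and its acute mean differed from the mean of those 9 by at least 1.5-fold.

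RNA was taken from whole adults, with no strain or genotype given, and sequenced as stranded poly(A) libraries. Control animals stayed at 14 °C for all 5 days. Acute animals stayed at 14 °C for 4 days and were then moved to 17 °C for 24 h. Sustained animals were warmed to 17 °C within the first 24 h and kept warm to the end. Recovery animals were warmed in the same way and spent their final 24 h back at 14 °C. All groups were kept in the dark in aerated vessels for 120 h in total. Of the 4 vessels per group 3 were sequenced, and the number of animals per vessel is not given in the sources used here. In whole animals, fewer cells of a type and less RNA per cell cannot be told apart.

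Animals that do not regulate their temperature are known to answer sudden warming with chaperones, the heat shock proteins, which hold unfolding proteins, and with shifts in metabolism, cuticle and translation genes. Part of such a response can fade while warming goes on, as animals acclimate. This is why a transcript set apart only after 24 h of warming is of interest. The deposited table does not pair its identifiers with gene names, so no member is given a function here, and the whole-body label could not be set against marker genes. The identifiers have the form used by the Trinity assembler, in which DN marks a cluster of related reads, c a part of it, g a gene and i an isoform.

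Library totals ranged from 11582848 to 32504862 counts, and from 8659487 to 23838612 without the transcript named above. Control replicate 2 had the smallest total and stood apart, with a median Spearman correlation of 0.804 with the other libraries across transcripts of at least 1 CPM. Its highest correlation was with acute replicate 3, at 0.869. The remaining 11 libraries correlated with each other between 0.891 and 0.957. Several results that rest on control replicate 2 are therefore given with and without it.

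The same rule was applied to each treatment group in turn. The acute libraries were above all others for 67 transcripts, which is 0.215% of the 31102, and below all others for 87, or 0.28%. The control libraries were set apart upward for 36 (0.116%) and downward for 80 (0.257%). For the sustained libraries the counts were 50 higher (0.161%) and 72 lower (0.231%), and for the recovery libraries 40 higher (0.129%) and 70 lower (0.225%). In sum the acute group had 154 such transcripts, the sustained group 122, the control group 116 and the recovery group 110. The acute count was the highest of the 4 under this scaling, but every group, the control group included, had 110 or more such transcripts. Both this order and the split into higher and lower depend on what the library totals include. TMM and RLE scaling, which adjust the library sizes, kept this order of groups, with 152 acute transcripts each. Thinning the counts to the smallest library total did not keep it. The acute group then had 140 such transcripts, the control group 132, the sustained group 118 and the recovery group 102. With TRINITY_DN157064_c6_g3_i1 kept in the library totals, the acute libraries were above all others for 167 transcripts, 34 of them among the 67, and below for 6, with 3 among the 87. The recovery group then had 474 such transcripts against 173 for the acute group. That scaling also moved the median log2 ratio of acute to other libraries over all transcripts of at least 1 CPM from 0.01 to 0.21.

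Without control replicate 2, the acute libraries were above the other 8 for 158 transcripts (0.511%) and below them for 180 (0.582%). The sustained libraries then had 65 higher (0.21%) and 74 lower (0.239%), and the recovery libraries 52 higher (0.168%) and 81 lower (0.262%). The control group, which lost a library, was not counted in this setting. Leaving out that library thus took the acute count from 154 to 338, and the sustained and recovery counts only to 139 and 133. The part of the resemblance between control replicate 2 and acute replicate 3 in this was not tested. Of the 67 higher transcripts 56 were still in the set, and of the 87 lower ones 81.

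**Figure D1:**
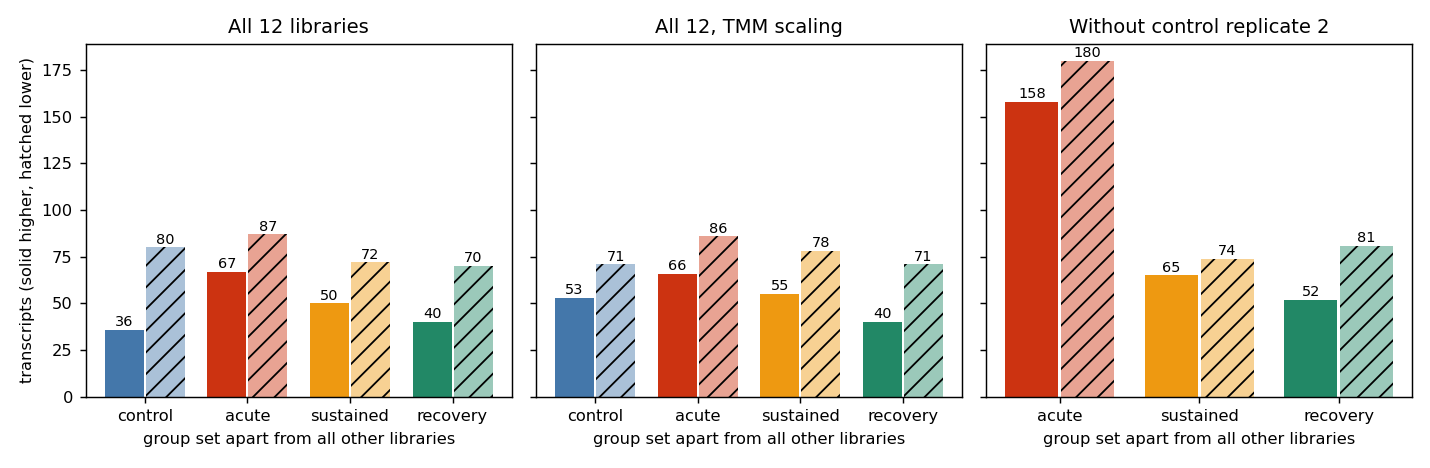
Number of transcripts (vertical axis) for which all libraries of a group lay above (solid bars) or below (hatched bars) every other library with at least 1.5-fold between the means, for all 12 libraries, after TMM scaling, and without control replicate 2. The acute bars are 67 and 87 with all libraries and 158 and 180 without control replicate 2. There the sustained and recovery bars stay at 81 or fewer, and the control group, which lost a library, is not shown.

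Among the 67 higher transcripts, the acute mean exceeded the mean of the other 9 libraries by 1.505 to 3.06 times, with a median of 1.70, and 8 reached 2-fold. Their mean over 12 libraries ran from 1.07 to 139 CPM with a median of 3.10 CPM, against a median of 4.96 CPM for all transcripts of at least 1 CPM. The median over members of the group mean was 4.84 CPM in the acute group, 2.22 CPM in control animals, 2.52 CPM in sustained animals and 2.501 CPM in recovery animals. These values chose the members and are given as a description.

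TRINITY_DN191068_c4_g2_i10 had the widest gap of the higher transcripts. It was at 5.93, 5.28 and 4.01 CPM in acute replicates 1, 2 and 3. In the control libraries it was at 1.37, 1.501 and 1.48 CPM, in the sustained libraries at 1.59, 1.54 and 1.65 CPM, and in the recovery libraries at 1.60, 2.21 and 1.97 CPM. All acute libraries thus stood well clear of the rest, the nearest being recovery replicate 2, and the control and sustained libraries were tightly grouped. Its acute mean of 5.07 ± 0.973 CPM (SD, n = 3) was 3.06 times the mean of the other 9 libraries, 1.66 ± 0.266 CPM (SD, n = 9), and it was the 1 higher transcript that reached 3-fold. The counts behind these levels were 116, 84 and 68 in the acute libraries and 13 to 41 elsewhere. The table held 2 isoforms of this Trinity gene.

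TRINITY_DN170032_c1_g1_i4 was the most abundant of the higher transcripts in CPM, a scale that does not correct for transcript length. It was at 213, 182 and 177 CPM in the acute libraries. The control libraries held 121, 82.5 and 126 CPM, the sustained libraries 138, 110 and 136 CPM, and the recovery libraries 157, 135 and 92.1 CPM. The acute libraries did not overlap with any other, but recovery replicate 1 came close to acute replicate 3. Its acute mean was 190 ± 19.3 CPM (SD, n = 3) against 122 ± 23.5 CPM over the other 9, which is 1.56-fold. The table held a single isoform of this Trinity gene.

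The other higher transcripts lay mostly at a few CPM. By mean level, 20 were below 2 CPM, 29 between 2 and 5 CPM, 11 between 5 and 10 CPM and 7 at 10 CPM or more. The median fold in these classes, in the same order, was 1.80, 1.70, 1.61 and 1.64. The share of all transcripts that were members was 0.271% in the lowest class, 0.353% and 0.231% in the next ones and 0.0652% in the highest, so abundant transcripts were seldom set apart upward. The second largest shift was 2.54-fold, in a transcript at 6.13, 6.86 and 5.25 CPM in the acute libraries. It was at 0.577 to 3.30 CPM in the other 9, with the lowest value in control replicate 2.

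Low values in control replicate 2 were frequent among the higher transcripts. In 22 of the 67, or 32.8%, that library lay below 50% of the median of the other 8 comparison libraries, against 14.6% of all transcripts of at least 1 CPM. In 12 of them, or 17.9%, it lay below 10% of that median, against 4.47% of all. Of the 67, 5 had a count of 0 in control replicate 2 and none of the 67 had a 0 in any other library. A low value there pulls down the mean of the 9 and so helps a transcript reach 1.5-fold, and without that library 11 of the 67 no longer met the rule.

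**Figure D2:**
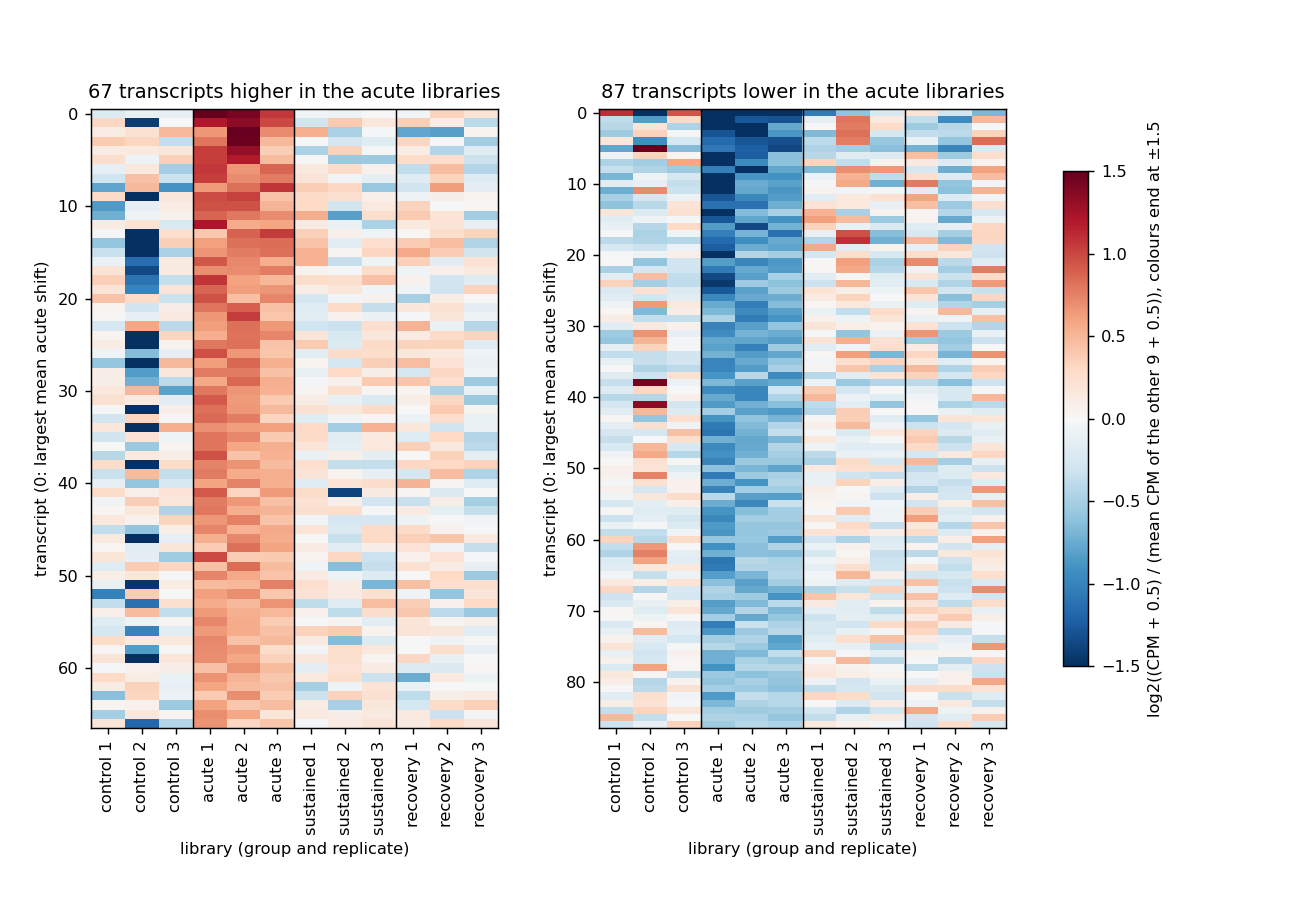
Each row is a member and each column a library; colour is the log2 ratio of its CPM to the mean of the 9 libraries outside the acute group, with 0.5 CPM added to both. The acute columns are uniformly red or blue because the rule asked for that, while deep blue cells in control replicate 2 mark the higher transcripts that were low there.

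The 87 lower transcripts had a mean over the other 9 libraries that was 1.504 to 6.27 times the acute mean. The median was 1.82-fold, 33 reached 2-fold and 4 reached 3-fold. Larger shifts were thus more frequent than among the higher transcripts, although the rule asked for the same minimum of both. At a mean of 10 CPM or more, however, the median fold was 1.62, against 1.64 among the higher transcripts. Their mean level ran from 1.01 to 174 CPM with a median of 3.03 CPM. The median over members of the group mean was 1.72 CPM in the acute group, 3.62 CPM in control animals, 3.52 CPM in sustained animals and 3.46 CPM in recovery animals.

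TRINITY_DN193096_c2_g2_i1 had the widest relative gap of the lower transcripts. It was at 0.255, 0.566 and 0.531 CPM in the acute libraries, from counts of 5, 9 and 9. The control libraries held 1.01, 0.924 and 1.18 CPM, the sustained libraries 2.14, 1.10 and 1.35 CPM, and the recovery libraries 1.13, 1.75 and 0.960 CPM. The acute libraries were below all others, and control replicate 2, with a count of 8, was the nearest. The acute mean was 0.451 ± 0.170 CPM (SD, n = 3) against 1.28 ± 0.407 CPM over the other 9, which is 2.84 times as much. At such counts the 95% counting intervals of the highest acute and the lowest other library overlapped.

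TRINITY_DN178566_c2_g2_i1 was the most abundant of the lower transcripts in CPM. Its acute libraries were at 107, 119 and 141 CPM. The control libraries were at 186, 150 and 180 CPM, the sustained libraries at 185, 269 and 201 CPM and the recovery libraries at 157, 161 and 228 CPM. The acute libraries spread toward the others, and control replicate 2 was 1.06 times acute replicate 3, the nearest pair. The mean of the 9 was 191 ± 37.8 CPM against 122 ± 17.6 CPM in the acute group, a ratio of 1.56.

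**Figure D3:**
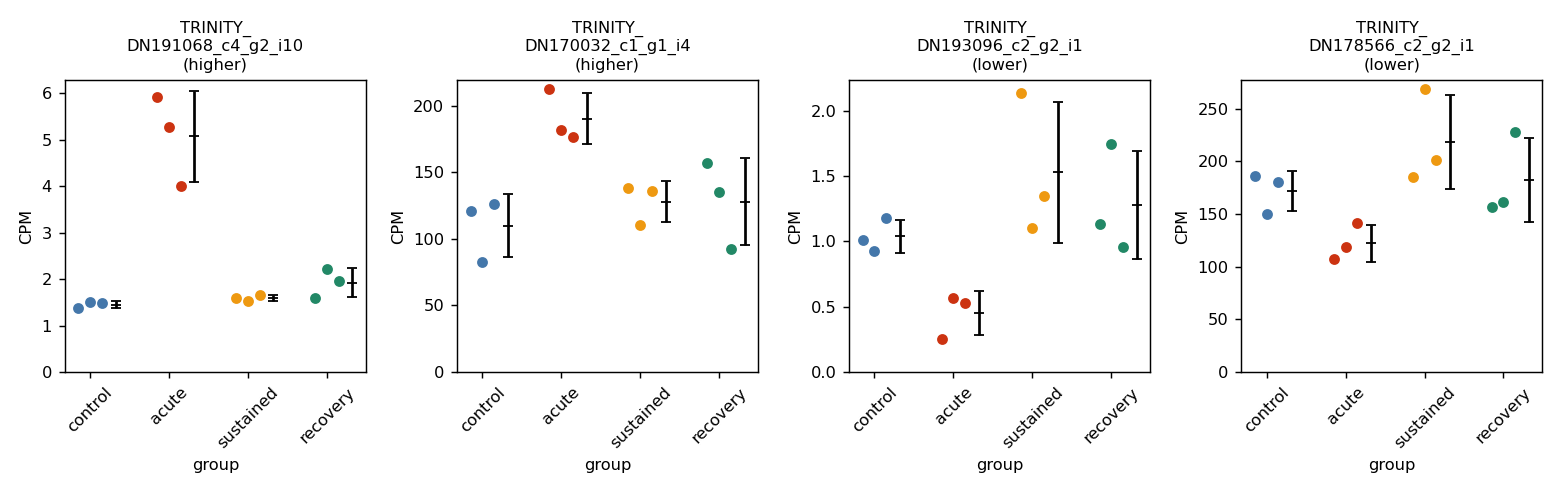
CPM in each library (points) of the 2 higher and 2 lower transcripts described by identifier, by group, with the group mean and SD (bars, n = 3). The acute points of TRINITY_DN191068_c4_g2_i10, from 4.01 to 5.93 CPM, stand clear of all others at 2.21 CPM or less, while those of TRINITY_DN178566_c2_g2_i1 reach 141 CPM, just under the lowest other library at 150 CPM.

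The remaining lower transcripts were spread over all levels. There were 33 below 2 CPM, 26 between 2 and 5 CPM, 10 between 5 and 10 CPM and 18 at 10 CPM or more, which is 0.447%, 0.317%, 0.21% and 0.168% of all transcripts in those classes. The median fold in these classes, in the same order, was 2.07, 1.79, 1.72 and 1.62. The largest shift, 6.27-fold, was in a transcript at 0.715, 2.08 and 1.53 CPM in the acute libraries. Its control libraries were at 20.0, 2.66 and 17.9 CPM, its sustained libraries at 4.07, 5.78 and 7.65 CPM and its recovery libraries at 10.5, 7.40 and 5.47 CPM. The comparison libraries of this transcript therefore differed among themselves, with 2 control libraries high, control replicate 2 low, and the sustained and recovery libraries in between. The next, at 4.39-fold, owed its size to control replicate 2, at 6.58 CPM, where the other 8 libraries were at 0.466 to 1.15 CPM and the acute ones at 0.236 to 0.409 CPM. Control replicate 2 exceeded 2 times the median of the other 8 comparison libraries in 6 of the 87, and in 10.1% of all transcripts of at least 1 CPM.

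The gap that set the members apart was narrow. The ratio of the nearest acute to the nearest other library, with 0.5 CPM added to both, had a median of 1.07 in both directions and a maximum of 1.66 among the higher and 1.34 among the lower transcripts. The 95% Poisson intervals of these 2 libraries, which cover counting error only, were apart in 2 of the 67 higher transcripts, both named above, and in 0 of the 87 lower ones. When counts were thinned to the smallest library total, the rule found 64 higher and 76 lower transcripts, but only 30 and 40 of them were among the original members. The number of transcripts stayed close to the original, while most of the individual members were exchanged.

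The thresholds also divided a continuum. The higher transcript just inside the fold minimum had a mean of 52.9 CPM in the acute and 35.2 CPM in the other libraries, a ratio of 1.505. The one just outside had 10.5 and 6.996 CPM, a ratio of 1.4999. Among the lower ones, the transcript just inside had 28.1 CPM in the acute and 42.2 CPM in the other libraries (1.504-fold), and the one just outside had 5.83 and 8.74 CPM (1.4998-fold). At any fold, the acute libraries were above the other 9 for 168 transcripts and below them for 134, so 101 higher and 47 lower transcripts were set apart but fell short of 1.5-fold. At the level threshold, the least abundant members had means of 1.07 CPM (higher) and 1.01 CPM (lower), and the closest transcripts outside had 0.985 and 0.989 CPM.

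The library nearest to the acute ones differed from member to member. Among the higher transcripts it was recovery replicate 2 in 14, control replicate 2 in 11, sustained replicate 2 and recovery replicate 1 in 10 each, and the other 5 libraries in 3 to 6 each. Among the lower ones it was recovery replicate 2 in 22, control replicate 2 in 18, sustained replicate 3 in 10 and the others in 3 to 9 each. Recovery replicate 2 thus set the edge for 20.9% of the higher and 25.3% of the lower members, whereas it was the highest of the 9 for 10.6% and the lowest for 7.06% of all transcripts of at least 1 CPM. Control replicate 2 was the highest of the 9 for 25.9% and the lowest for 22.4% of all transcripts.

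Within the acute group, replicate 3 was the least shifted. It had the lowest of the 3 acute values in 41 of the 67 higher transcripts, or 61.2%, against 35.3% of all transcripts. In the 87 lower transcripts it had the highest acute value in 40, or 46%, against 33.3% of all. Replicates 1 and 2 were least shifted in 13 each of the higher and in 19 and 28 of the lower transcripts. The median log2 ratio to the mean of the other 9 was 0.73, 0.68 and 0.50 in acute replicates 1, 2 and 3 for the higher transcripts and -0.89, -0.74 and -0.62 for the lower ones. Without acute replicate 3 the rule asks only for 2 acute libraries to be apart, and it then gave 658 higher and 752 lower transcripts. It gave 161 and 189 without acute replicate 1, and 218 and 246 without acute replicate 2.

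**Figure D4:**
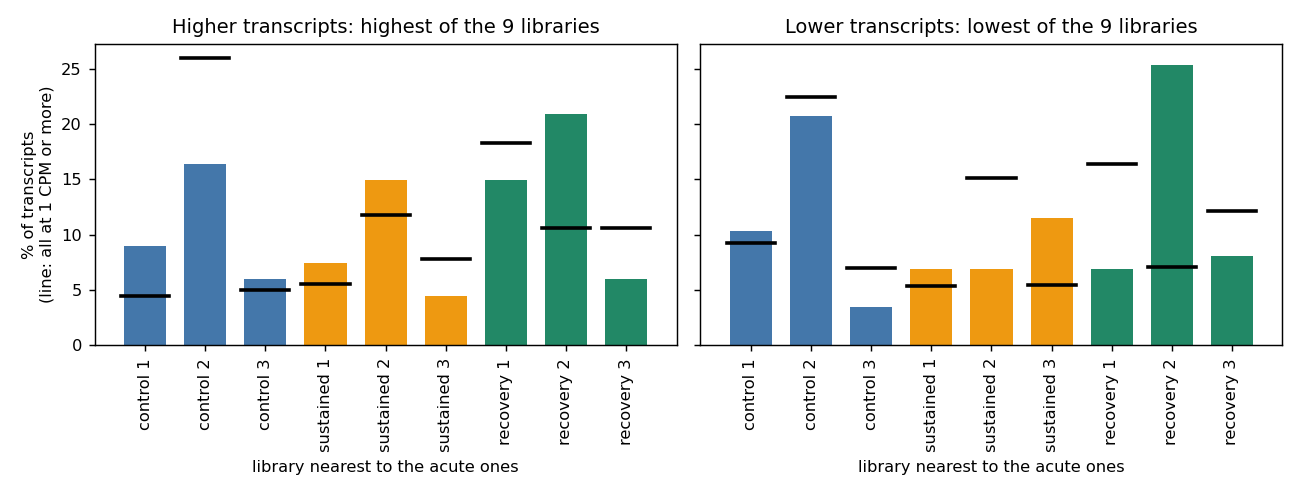
Share of the higher (left) and lower (right) transcripts for which each of the 9 comparison libraries came nearest to the acute ones (bars, coloured by group), with the share of all transcripts of at least 1 CPM in which that library was the highest or lowest of the 9 (lines). Recovery replicate 2 is the tallest bar in both panels, at 20.9% and 25.3%, above its lines at 10.6% and 7.06%.

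The members were then compared among the other 3 groups. The rule kept only transcripts whose sustained and recovery libraries lay on the control side of every acute library, so a transcript that stayed fully shifted under longer warming could not be a member. These contrasts therefore describe differences within that limit and do not test whether the shift persisted. Differences were tested with edgeR's quasi-likelihood test, fitted on 40943 transcripts and all 12 libraries, with Benjamini-Hochberg adjustment over all of them, and all 154 members were among those tested. Between the sustained and control groups, 0 of the 67 higher and 0 of the 87 lower members passed an adjusted p of 0.05 (0% of all transcripts passed, lowest adjusted p = 0.98), and DESeq2 called none of them among its 16 calls (0.0391%). At an unadjusted p under 0.05 there were 2 higher and 2 lower members, which is 2.99% and 2.3%, against 4.44% of all tested.

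The median log2 difference between sustained and control animals was 0.21 over the 67 higher transcripts and 0.07 over the 87 lower ones, against 0.00 over all transcripts of at least 1 CPM. Of the higher transcripts 46 were above and 21 below their control level. This lean rested on control replicate 2. Without it the median over the higher transcripts was -0.0037, with 32 of 67 above the control level, and that over the lower ones 0.08. The sustained libraries were all above the control libraries in 4 higher and 3 lower members (5.97% and 3.45%, against 5.82% of all) and all below in 2 and 4 (2.99% and 4.6%, against 4% of all). These counts were near the background.

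Between recovery and control, 0 of the 154 members passed edgeR's test (0% of all, lowest adjusted p = 1), none was the single call of DESeq2 (0.00244%), and 1 higher and 5 lower members had an unadjusted p under 0.05 (3.18% of all). The median log2 difference was 0.11 over the higher and 0.03 over the lower transcripts, and 0.04 and 0.06 without control replicate 2. Recovery libraries were all above the control libraries in 6 higher members (8.96%, against 3.65% of all) and all below in 5 (7.46%, against 2.54%), so both shares among the higher members were above those of all transcripts. Among the lower members these counts were 1 and 2.

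Between recovery and sustained animals, the median log2 difference was -0.02 over the higher and -0.01 over the lower transcripts. Again 0 members passed edgeR's test (0% of all), DESeq2 called none among its 9 calls (0.022%), and 0 higher and 3 lower members had an unadjusted p under 0.05 (2.14% of all). Recovery libraries were all above the sustained ones in 1 higher and 4 lower members (3.83% of all) and all below in 1 and 6 (3.36% of all). A missed threshold does not show equal levels. The approximate 95% interval of the difference between sustained and control lay within 2-fold for 28 of the 67 higher transcripts (41.8%) and 50 of the 87 lower ones (57.5%), against 53.3% of all transcripts of at least 1 CPM. For the remaining members a 2-fold difference between these groups was within the interval.

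**Figure D5:**
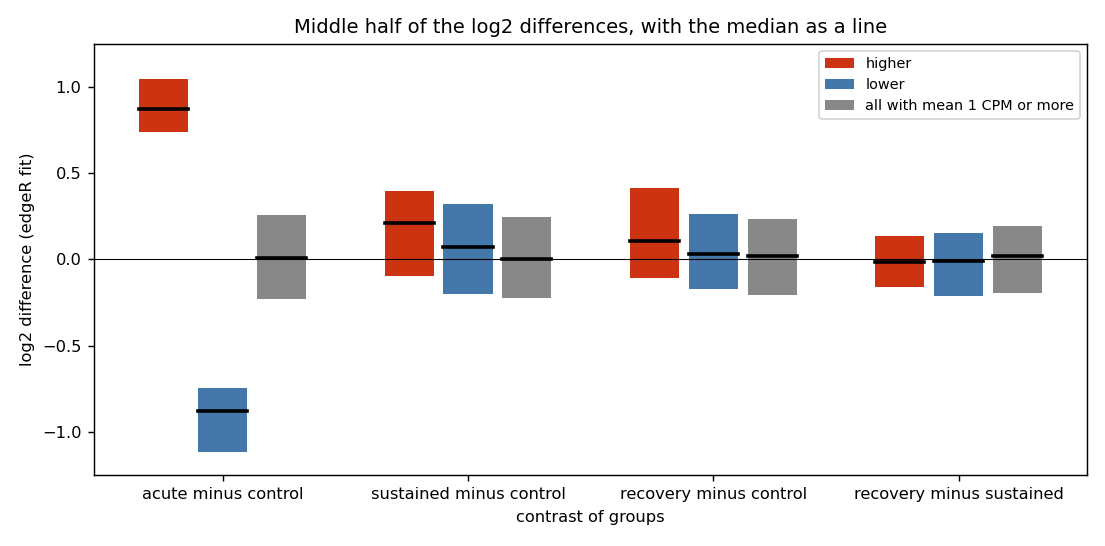
Middle 50% (bars) and median (lines) of the log2 differences fitted by edgeR between pairs of groups, for the 67 higher transcripts, the 87 lower transcripts and all transcripts of at least 1 CPM. Medians are 0.88 and -0.88 between acute and control, where the rule placed the members, and between -0.02 and 0.21 in the other 3 pairs.

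For TRINITY_DN191068_c4_g2_i10 the sustained minus control log2 difference was 0.13 ± 0.31 (SE) and the recovery minus control difference 0.39 ± 0.31 (edgeR adjusted p = 0.98 and 1). For TRINITY_DN170032_c1_g1_i4 these were 0.20 ± 0.22 and 0.19 ± 0.22, for TRINITY_DN193096_c2_g2_i1 0.54 ± 0.45 and 0.26 ± 0.45, and for TRINITY_DN178566_c2_g2_i1 0.34 ± 0.20 and 0.06 ± 0.20. Each had an adjusted p of 0.98 for the sustained and 1 for the recovery comparison in edgeR.

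Which group came nearest to the acute one was also mixed. By group mean, the higher transcripts had the sustained group nearest in 28, the recovery group in 24 and the control group in 15. The lower transcripts had the control group nearest in 38, the sustained group in 26 and the recovery group in 23. So in both directions some members had their next level in each of the 3 groups. The control means here include control replicate 2, which was often low among the higher transcripts. Its part in these counts was not tested, and the matching shares over all transcripts are not given.

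The acute and control groups differ in the comparison that, with others, chose the members, so that comparison is described only. By the rule, all 67 higher members had the acute libraries above the control ones (5.4% of all transcripts did), and all 87 lower members had them below (3.93% of all). The median log2 difference was 0.88 over the higher and -0.88 over the lower transcripts. edgeR's test called 0 of the 154 (0% of all, lowest adjusted p = 0.74), with 40 higher and 67 lower members at an unadjusted p under 0.05 (3.9% of all). DESeq2 made 3 calls over all transcripts (0.00733%), and all 3 were members. Without control replicate 2, edgeR called 1 transcript, also a member. The rule chose members on these same libraries, so this overlap is no support for the set.

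Finally, relatives of the members in the assembly were examined, which the rule did not use, although reads shared between near-identical transcripts may have been split or dropped in the counting, and the part of this was not tested. The 67 higher members came from 67 Trinity genes in 67 clusters, and the 87 lower ones from 87 genes in 86 clusters, so no gene contributed more than 1 isoform. The higher members had a single isoform in the table in 30 cases, or 44.8%, and the lower ones in 65, or 74.7%, against 62.2% of all transcripts of at least 1 CPM.

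The other isoforms of the members' genes lay on the member's side more often than all transcripts did, but only somewhat so for the higher members. Their shifts were mostly smaller. These relatives were measured in the same libraries that chose the members, control replicate 2 included. Ratios and 1.5-fold limits for these relatives, and for all transcripts beside them, were taken after adding 0.5 CPM to both means, unlike the 1.5-fold of the membership rule. Of 37 other isoforms of at least 1 CPM for the higher members, 23 (62.2%) had a higher acute mean than the mean of the other 9, against 52.2% of all transcripts, with a median log2 ratio of 0.13 and 5 at 1.5-fold or more. For the lower members 20 of 27 (74.1%) lay lower, against 47.8% of all, with a median of -0.13 and 4 at 1.5-fold or more. The share at 1.5-fold or more was 13.5% around the higher members, against 2.62% of all transcripts. Around the lower members it was 14.8%, against 2.84% of all. In each set 0 of these isoforms reached 1.5-fold in the opposite direction. When counts were summed by Trinity gene, 6 of the 37 higher members with several isoforms still met the rule, and 2 of the 22 lower ones.

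Other genes of the same clusters also lay more often on the member's side than all transcripts did. Of 202 such transcripts of at least 1 CPM around the lower members, 130 (64.4%) had a lower acute mean and 24 (11.9%) were lower by 1.5-fold or more, against 2.84% of all transcripts. These 24 came from 17 of the 62 clusters with such relatives, with at most 3 from 1 cluster. Around the higher members, 55 of 76 (72.4%) had a higher acute mean, but 1 (1.32%) reached 1.5-fold, against 2.62% of all. Members of the same direction were left out of these counts, and 1 cluster held 2 lower members, in different genes. Members of the opposite direction were not left out, and 1 higher member shared its cluster with a lower member. Among the relatives that were not members, 0 in another gene of the cluster had their acute libraries apart from the other 9 on the member's side.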

How the data were processed

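RNA of 12 libraries, 3 per treatment group, was measured. The authors deposited untransformed counts of reads for each assembled transcript, all whole numbers. Trim Galore 0.4.1, TopHat2 2.1.1, edgeR and HTSeq 0.6.1 appear in the submitters' processing notes without roles. The assembly and counting options are not stated there. Totals per library bound the precision, and intervals cover counting error only.

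Groups follow the treatment label, and replicate numbers follow the order of deposit. Nothing pairs libraries between groups, and p-values measure the spread between vessels. The chi-square per degree of freedom between replicates was 11.5 to 36.8, so none was a repeat of another. CPM was computed from the deposited counts as defined in the report.

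Tests used edgeR 4.0.16 in R 4.3.3, with TMM scaling (factors 0.634 to 1.34), its low-count filter (minimum count 10, total 15), robust dispersion and 8 residual degrees of freedom, and were tested on simulated data. SE is the fitted difference divided by the square root of F. Alternatives were DESeq2 1.42.0, other scalings, filters and thresholds, thinned counts, sums by gene and leaving out each library. Members, lists and comparisons were chosen with earlier results of these data known. Transcripts named were, in each direction, the one with the widest gap and the most abundant. Python 3.11.15, pandas 2.3.3, NumPy 2.4.6, SciPy 1.17.1 and matplotlib 3.10.9 were used.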

Additional observations from a re-analysis of the deposited data

How the results depend on the processing

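TMM scaling gave 66 higher and 86 lower transcripts, of which 62 and 78 were original members, and RLE factors gave 65 and 87, of which 62 and 79 were. With the transcript TRINITY_DN157064_c6_g3_i1 kept in the totals, the rule gave 167 higher and 6 lower transcripts. The recovery group then had 0 higher and 474 lower transcripts. A minimum of 5 CPM gave 18 and 28, a minimum of 2-fold 8 and 33, a fold minimum lower than 1.5 gave 148 higher (126 lower), and sums by Trinity gene 40 higher (72 lower). Leaving out 1 library gave 76 to 658 higher and 91 to 752 lower transcripts. By the rule's construction fewer libraries ask for less, and counts moved beyond 1.5 times without control replicate 2, any acute replicate, recovery replicate 1 (110 and 142) or recovery replicate 2 (120 and 185). The cause was not tested.

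Calls among members between sustained, recovery and control groups were 0 under all settings run. For acute minus control they were 3 with DESeq2, and 0 to 1 when 1 library was left out, the 1 being without control replicate 2. Scaled by library totals alone, the median recovery minus control log2 difference was -0.34 over the higher and -0.38 over the lower transcripts. The recovery minus sustained medians were then -0.38 and -0.35. These totals include TRINITY_DN157064_c6_g3_i1, and the matching medians over all transcripts are not given. Over all transcripts tested, those at an unadjusted edgeR p under 0.05 between recovery and control rose from 1302 to 3549. No paired analysis was possible because the labels give no replicate numbers shared between groups. The edge libraries were apart by their counting intervals in 2 higher and 0 lower members, and the part of depth in this was not tested.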
